A study of Mus musculus with 17 samples.

Results

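The 5 libraries described here, of 17 in the study, follow mouse embryonic fibroblasts (MEFs) that carry a doxycycline-inducible miR-203 knock-in (KI) through the first week of reprogramming, compared as 3 late against 2 early time points. The early libraries are the KI MEFs and the KI culture at day 0, and the late ones are KI days 4, 6 and 7. The 5 columns were picked by their labels alone, and a gene entered the comparison when it reached 5 FPKM (sequenced fragments scaled to transcript length and to the mapped total of the library) in at least 1 of them, which 10639 of 38734 genes did. All cells of the study carry the reprogramming factors Pou5f1 (Oct4), Sox2, Klf4 and Myc (OSKM) and the Rosa26 rtTA transactivator, so doxycycline at 1 µg/ml switches OSKM on, and in KI cells it switches on miR-203 from the ColA1 locus as well. The wild-type (WT) and miR-203 knock-out (KO) lines were sampled at the same 5 stages and serve as background, and 2 libraries of reprogrammed colonies are not used here. A single library was made per genotype and stage, and the sources used here do not say whether a line came from 1 embryo or several. Every library, MEFs included, has the same label for a 2-week doxycycline course, so when induction began relative to the MEF and day 0 samples cannot be read from the labels.

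miR-203 is a microRNA best known from skin, where it is made as keratinocytes leave the stem-cell layer and limits their capacity to divide. A microRNA pairs through its seed, the short stretch behind its first base, with sites in the 3′ untranslated region (UTR) of messenger RNAs, and lowers their stability and translation. Reprogramming with OSKM normally passes through an early phase in which fibroblasts lose mesenchymal gene expression and divide fast, before the endogenous pluripotency genes come on. The sequences below are shown because the seed defines which messenger RNAs the induced microRNA could pair with. They are from RefSeq on the GRCm38.p6 build, in which Mir203 lies on the plus strand at chr12:112130880-112130955, where it is annotated as a microRNA gene. In the hairpin the capitals mark the mature 3p arm, at chr12:112130927-112130948, and in the mature strands they mark the seed, bases 2 to 8.
Mir203 hairpin: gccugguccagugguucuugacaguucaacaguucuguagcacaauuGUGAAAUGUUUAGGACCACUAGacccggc
miR-203-3p: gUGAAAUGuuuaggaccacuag
miR-203-5p: aGUGGUUCuugacaguucaaca

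Mir203 RNA was higher in the late KI libraries. It measured 569 FPKM in the MEF library and 185 at day 0, against 7903, 5863 and 5470.0 at days 4, 6 and 7. All 3 late values lay above both early ones, with a late minus start difference of 4.28 ± 0.49 (standard error) on the log2(FPKM + 1) scale and an adjusted p of 0.002 in limma with Benjamini-Hochberg (BH) adjustment. The value counts polyadenylated fragments over the hairpin gene, which is shorter than a sequencing fragment, and not the mature microRNA, and Mir203 was listed at 0 in all 10 WT and KO libraries. In the KI MEFs it was already at 569 FPKM, and the values do not separate the knock-in from the endogenous gene.

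Of the 4 factors, Myc changed between early and late KI libraries, Klf4 did not pass the test and Pou5f1 and Sox2 were too low to be tested. Pou5f1 stayed between 0.0387 and 0.96 FPKM over the 5 KI libraries, while WT cells reached 266, at day 4, and KO cells 954 FPKM. The WT peak was not kept, as the 4 factors together summed to 455 FPKM at WT day 4 and 87.0 and 143 at days 6 and 7. WT day 4 is also among the libraries set apart below by sex-linked RNA. Sox2 stayed between 0.05 and 0.223 FPKM in KI, and reached 19 in WT and 37.9 in KO. Neither reached 5 FPKM in a KI library, so neither entered the KI comparison. Klf4, measured at 20.3 and 25.8 FPKM at the start and 37.8, 25.7 and 26.3 later, did not pass the test (0.35 ± 0.21, limma adjusted p = 0.21). Myc, the factor that drives growth and ribosome production, was at 34.5 and 48.8 FPKM in MEFs and day 0 and at 7.40, 6.63 and 4.38 on days 4, 6 and 7. The groups did not overlap, with a difference of −2.58 ± 0.25 (limma adjusted p = 0.0013). These values do not separate the endogenous genes from transgene messages.

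Set beside the other genotypes, the late minus start change of Pou5f1 in KI minus that in KO was −7.92 ± 0.99 log2 units (limma adjusted p = 0.0045), a call kept when any single library was left out. Against WT the same difference was −6.07 ± 0.99, which did not pass (limma adjusted p = 0.082). For Sox2 the difference from KO was −4.82 ± 0.80 (limma adjusted p = 0.01, and 0.051 without the KI MEF library). Myc, which fell in KI, was at 29.1 and 41.2 FPKM early and 98.5, 113 and 119.7 late in KO, a difference of −4.22 ± 0.81 (limma adjusted p = 0.012, 0.057 without KO day 0 and 0.051 without the KI MEF library).

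Across the whole series the files hold FPKM values only, so sequencing depth is unknown. The KI columns sum to between 510501 and 588066 FPKM, with 12413 to 12829 genes at 1 FPKM or more. A pair of WT libraries stands apart in sex-linked RNA, which touches each KI against WT comparison below. Xist was 46.9 and 48.0 FPKM in WT MEFs and WT day 4, at most 3.23 in the other WT stages and at most 0.157 in KI. Ddx3y, on the Y chromosome, was 0.0179 and 2.74 FPKM in those same WT libraries, against 16.6 to 19.6 in the other WT stages and 14.5 to 19.9 in KI. All 5 KI libraries were thus alike in these genes.

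Between the early and late KI libraries, 1978 genes were higher (18.6% of the genes tested) and 3981 were lower (37.4%), together 56.0%, by limma at a BH-adjusted p of 0.05. With an added minimum of 1 log2 unit, 1072 were higher (10.1%) and 1637 lower (15.4%). In 2686 genes (25.2%) all late values lay above both early ones, and in 5107 (48.0%) below. The median gene was lower by 0.26 log2 units, so each difference below should be read against that shift. Quantile or upper-quartile scaling moved the median to between −0.08 and −0.06 and the higher share of all calls from 33.2% to 44.8% or 46.2%, and 0 genes passed in the opposite direction. The spread used by the test is that among stages of 1 line, not among replicate cultures of a stage. Whether the stages share a culture is not stated in the labels. An exact permutation test of 3 against 2 libraries cannot go below p = 0.1. Neighbouring stages within a phase differed little: the median absolute difference was 0.18 between MEFs and day 0, 0.16 between days 4 and 6 and 0.14 between days 6 and 7, against 0.58 between days 0 and 4.

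Among the 12 largest increases were genes for secreted defence proteins, chemokines and matrix proteins. Saa3, an acute-phase serum amyloid made outside the liver (chr7:46711998-46715700 on GRCm38), went from 0.414 and 0.137 FPKM at the start to 2873, 3805 and 6341 on days 4, 6 and 7. It was below 1 FPKM early and highest at day 7, with a difference of 11.66 ± 0.35 (limma adjusted p = 0.00015). Reg3g, a lectin that kills Gram-positive bacteria (chr6:78466269-78468872), was at 0.125 and 0 FPKM and then 2219, 1402 and 2481, a rise of 10.86 ± 0.27 (limma adjusted p = 9.8e-05). Reg1, of the same secreted lectin family and in the same chromosomal region (chr6:78422711-78428667), was listed at 0 in both early libraries and at 354, 114 and 142 later, highest at day 4. Lcn2, a siderophore-binding protein that withholds iron from bacteria, was likewise listed at 0 and then at 134, 118 and 145. Serpina3n, an acute-phase protease inhibitor, was at 0.168 and 0.229 FPKM and then 722, 556 and 759, a rise of 9.14 ± 0.16.

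The chemokine Cxcl5, which attracts neutrophils, went from 2.19 and 2.97 FPKM to 681, 1178 and 1597, and Ccl11 (eotaxin), which attracts eosinophils, from 0.242 and 0.082 FPKM to 164, 319 and 429. Both were lowest at day 4 and highest at day 7 among the late days. C3, the central complement protein, rose by 7.63 ± 0.25, from 0.211 and 0.121 FPKM to 181, 211 and 319. Steap4, a metalloreductase induced by inflammatory cytokines, rose by 7.00 ± 0.15, from 0.0942 and 0.0488 FPKM to 152, 115 and 144. The remaining 3 of the 12 were a membrane receptor and a pair of matrix proteins. Agtr2, the angiotensin II type 2 receptor, was at 8.65 and 1.23 FPKM and then 894, 679 and 683. Lum (lumican), a small leucine-rich proteoglycan that spaces collagen fibrils, was at 8.56 and 4.93 FPKM and then 1226, 940.1 and 1123. Egfl6, a secreted matrix protein with EGF repeats, was at 0.488 and 0.4 FPKM and then 137, 113 and 135. Adjusted p-values for the 12 ran from 4.6e-05 to 0.00103 in limma.

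Among the largest decreases were regulators of growth-factor signalling, chromatin proteins of embryonic cells and a cytoskeletal adaptor. Hmga2 (chr10:120361275-120476469), an architectural chromatin protein of embryonic mesenchyme, went from 418 and 319.6 FPKM to 17.2, 13.1 and 10.1, lower at each later stage. Its relative Hmga1 went from 136 and 117 FPKM to 5.36, 2.58 and 1.59. Their differences were −4.69 ± 0.24 and −5.03 ± 0.39 (limma adjusted p = 0.00042 and 0.00084). Ptgs2 (cyclooxygenase 2, the inducible enzyme of prostaglandin synthesis) was at 93 and 189 FPKM, highest at day 0, and then at 3.08, 6.37 and 3.77.

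A further 3 decreases belong to signalling through the ERK kinase. Etv4, an ETS transcription factor induced by ERK, went from 40.7 and 42 FPKM to 1.69, 0.527 and 0.547. Dusp5, a nuclear phosphatase of ERK, went from 24 and 41.7 FPKM to 0.647, 0.506 and 0.329. Hbegf, a ligand of the EGF receptor, went from 34 and 47.5 FPKM to 1.10, 1.09 and 1.42. The cytoskeletal adaptor Pdlim1 fell by 4.26 ± 0.13, from 192 and 202 FPKM to 9.47, 10.6 and 8.11. Ctgf and Ankrd1, 2 genes commonly used to read out YAP, went from 716 and 1257 FPKM to 42.7, 76.1 and 74.2 and from 75.4 and 122 FPKM to 2.08, 7.99 and 6.45, in both cases lowest at day 4. Klk8, a kallikrein protease, fell by 3.83 ± 0.24. Sprr2k, a small proline-rich protein, fell by 4.26 ± 0.68.

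**Figure D1:**
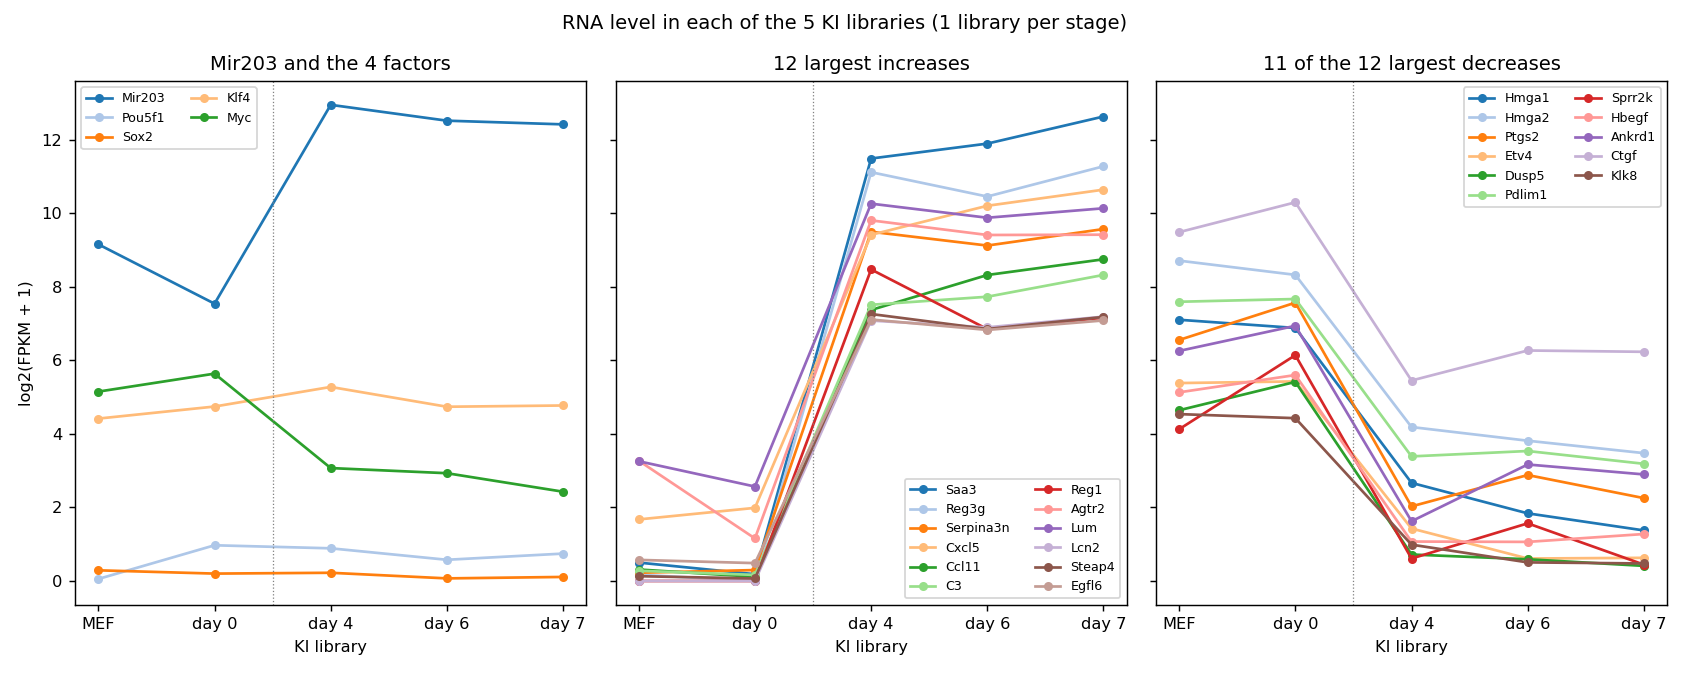
Levels in the 5 KI libraries (x axis: MEF, day 0, day 4, day 6, day 7; y axis: log2(FPKM + 1)) for Mir203 with the 4 reprogramming factors, the 12 genes with the largest increase and 11 of the 12 with the largest decrease. Mir203 rises from 569 and 185 FPKM to 7903, 5863 and 5470 while Pou5f1 and Sox2 stay below 1 FPKM, and most of the other genes step between day 0 and day 4 and then change little.

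Groups of related genes are described next by the members that reached 5 FPKM in at least 1 KI library. These were all 30 mitosis genes, 28 of 33 DNA replication genes, 24 of 24 for ribosome biogenesis, 21 of 23 for glycolysis, 22 of 23 smooth-muscle genes, 19 of 27 EGF ligands and early genes, 22 of 25 proteoglycans, 17 of 25 acute-phase genes, 14 of 20 for complement, 19 of 28 chemokines and cytokines, 22 of 30 interferon genes, 15 of 20 for MHC class I and 17 of 29 Wnt genes. Members that stayed below that level in all 5 libraries were not tested. Over all genes tested 18.6% were higher and 37.4% lower, and each count below stands beside those shares. A gene that reached it only through the late libraries, or only through the early ones, was favoured to differ in that direction. The counts of higher and of lower genes therefore describe the lists and support nothing further.

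Genes of cell division fell as a block. All 30 mitosis genes tested were lower in the late KI libraries, with a median difference of −1.97, against −0.26 over all genes. Summed over the 30, the level was 1185 and 865 FPKM early and 235, 256 and 198 late. Ect2, the exchange factor that starts cytokinesis, was at 26.9 and 21.2 FPKM and then 3.31, 4.69 and 3.37 (−2.39 ± 0.18, limma adjusted p = 0.00084). Ube2c, the ubiquitin-conjugating enzyme of the anaphase-promoting complex, was at 131 and 95.6 FPKM and then 20.1, 24.8 and 19.5 (−2.34 ± 0.19). The proliferation marker Mki67 was at 16.7 and 12.8 FPKM and then 3.29, 3.41 and 3.11. Ect2, Ube2c and Mki67 each showed the drop in full by day 4, with late values close to one another.

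Promoters of this group are known for 2 motifs, the CHR (TTTGAA) and the CCAAT box (CCAAT), which bind the DREAM/MuvB complex and NF-Y. RefSeq promoters of 300 bases (GRCm38.p6, from 250 bases before to 50 after the start) were matched for 25 of the 30 fallen genes. On either strand, 18 of the 25 held TTTGAA (72.0%, against 20.2% of the promoters of all 27025 genes) and 20 held CCAAT (80.0%, against 41.1%). A match of letters, here and for the motifs below, is a description and shows no binding. No share was computed for members that were not called, so these shares describe the lists and not the change in KI. The promoter of Ect2, on the minus strand at chr3:27153805-27154104, is printed because it holds both motifs without overlap, in capitals.
Ect2 promoter: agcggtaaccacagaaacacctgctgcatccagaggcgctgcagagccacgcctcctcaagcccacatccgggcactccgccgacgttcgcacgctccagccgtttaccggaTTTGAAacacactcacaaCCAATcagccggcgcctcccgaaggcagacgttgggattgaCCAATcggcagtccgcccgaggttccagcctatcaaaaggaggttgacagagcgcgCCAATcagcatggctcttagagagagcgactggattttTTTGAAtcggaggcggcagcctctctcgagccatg

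DNA replication genes followed. Of 28 tested, 27 were lower and none higher, with a median of −1.63. Uhrf1, which recruits the maintenance DNA methyltransferase to replicated DNA, went from 40.6 and 35.6 FPKM to 5.08, 5.30 and 4.66 (−2.70 ± 0.10), and Mcm2, a subunit of the replicative helicase, from 28.4 and 25.9 FPKM to 4.98, 5.01 and 3.27 (−2.39 ± 0.18). The exception was Orc1 of the origin recognition complex, at 14.8 and 32.7 FPKM early and 9.76, 12.8 and 0.981 late, whose late values scattered too widely to pass (limma adjusted p = 0.15). The ribosome biogenesis genes, many of them targets of Myc, were lower in all 24 tested, with a median of −1.65. Nop56, a core protein of the box C/D snoRNPs, went from 154 and 154 FPKM to 23.9, 27.3 and 23.6 (−2.58 ± 0.11), and Ncl (nucleolin) from 89 and 83.5 FPKM to 26.7, 24.7 and 23.2 (−1.76 ± 0.10).

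Genes that halt the cycle moved little beside that. Among 24 cell-cycle inhibitors, D cyclins and p53-pathway genes tested, 6 were higher and 3 lower, beside 18.6% and 37.4% of all genes. The higher count was 3 without KI day 4, 3 without day 6 and 4 without day 0 or day 7. Cdkn2a, which encodes the senescence proteins p16 and p19, was at 27.2 and 54 FPKM and then 85.2, 92.3 and 99.2, a rise of 1.24 ± 0.29 (limma adjusted p = 0.018). The p21 gene Cdkn1a was at 220.3 and 225 FPKM and then 267, 329 and 278, a rise of 0.38 ± 0.12 (limma adjusted p = 0.048). Trp53 itself fell by 1.21 ± 0.13, and cyclin D1 (Ccnd1) fell by 1.15 ± 0.27.

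Glycolysis was lower too. Of 21 genes tested, 15 fell and 2 rose, with a median of −1.33. Slc2a1, the glucose transporter GLUT1, went from 60.3 and 38.8 FPKM to 11, 13.7 and 13.1 (−1.86 ± 0.21), and the lactate exporter Slc16a3 from 58.8 and 14.5 FPKM to 2.30, 2.80 and 2.12 (−3.17 ± 0.57). The 2 genes that rose were Pfkm, the muscle phosphofructokinase (0.48), and Slc16a1, a monocarboxylate transporter, from 12 and 10.1 FPKM to 61.2, 63.2 and 97.4 (2.61 ± 0.23). Values for Gapdh, Eno1, Ldha, Pgk1 and Pgam1, all lower, are uncertain in level because processed pseudogenes share their sequence.

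In lipid synthesis, 12 of 22 cholesterol genes were lower and 1 higher, with a median of −0.44, against −0.26 over all genes. Lanosterol synthase (Lss) went from 52.5 and 37.5 FPKM to 22.2, 14.2 and 13.6 (−1.40 ± 0.26), while Hmgcs1 did not pass (0.07 ± 0.12). The count fell to 3 without the KI MEF library and to 7 without day 6 or under either other scaling. Of 12 fatty acid synthesis genes 6 were lower, beside 37.4% of all genes. Among them was Fasn, the fatty acid synthase, from 107 and 81.6 FPKM to 29.8, 30.4 and 29.8 (−1.61 ± 0.14). The count of 6 was 2 without the KI MEF library and 9 without day 0.

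The contractile and cytoskeletal programme fell. Of 22 smooth-muscle and actin genes tested, 19 were lower and 1 higher, with a median of −1.83. Acta2 (smooth-muscle actin) went from 2809.7 and 3079 FPKM to 259, 887 and 619 (−2.49 ± 0.52, limma adjusted p = 0.012), with its lowest value at day 4 and higher values at days 6 and 7. Cnn1 (calponin) showed the same order, from 66.3 and 73.4 FPKM to 1.77, 7.14 and 4.84 (−3.80 ± 0.46). Vcl (vinculin), which links actin to focal adhesions, had late values close together, from 94 and 104 FPKM to 19.8, 18.2 and 16.3 (−2.39 ± 0.12, limma adjusted p = 0.00038). The gene that rose was the integrin subunit Itga1 (1.67 ± 0.12). Srf, the serum response factor that drives many of these genes, went from 25.9 and 24.8 FPKM to 8.08, 7.07 and 6.05 (−1.71 ± 0.13).

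SRF binds the CArG box, a motif with an AT-rich core. A CArG box was found in 4 of 17 matched promoters of the fallen genes (23.5%), against 1.81% of the promoters of all genes. The Vcl promoter, on the plus strand at chr14:20929148-20929447, is printed because its box, in capitals, reads the same on both strands.
Vcl promoter: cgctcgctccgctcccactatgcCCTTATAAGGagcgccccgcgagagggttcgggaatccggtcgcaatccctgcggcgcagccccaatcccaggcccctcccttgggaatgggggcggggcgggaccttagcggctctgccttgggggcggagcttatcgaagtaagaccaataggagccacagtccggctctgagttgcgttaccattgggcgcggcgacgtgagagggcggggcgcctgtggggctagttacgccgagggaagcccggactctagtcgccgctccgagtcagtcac

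Genes commonly used as readouts of YAP, the effector of the Hippo pathway, were lower in 12 of 19 tested and higher in 2, with a median of −1.16. Besides Ctgf and Ankrd1 above, Cyr61 went from 370.4 and 567 FPKM to 103, 147 and 118 (−1.91 ± 0.24) and the receptor kinase Axl from 409 and 416 FPKM to 124, 121 and 117 (−1.77 ± 0.09). The 2 that rose were Tgfb2 (1.06) and Rbms3 (0.34). The TEAD motif GGAATG stood on either strand in 6 of 8 matched promoters of the lower genes (75%, against 16.6% of all genes).

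The EGF ligands and immediate early genes were lower in 15 of 19 tested and higher in 1, with a median of −1.88. Fosl1, an AP-1 subunit, went from 20.7 and 21.7 FPKM to 2.16, 2.10 and 2.21 (−2.81 ± 0.11) and the serum-induced factor Egr1 from 35.5 and 36.6 FPKM to 6.29, 4.34 and 4.55 (−2.63 ± 0.16). The ERK phosphatase Dusp4 went from 30.2 and 45.5 FPKM to 1.67, 2.09 and 2.51 (−3.63 ± 0.22). Jun, at 40.1 and 43.4 FPKM and then 50.6, 43.3 and 48.5, did not pass (limma adjusted p = 0.23), and Nrg1, a ligand of the ERBB receptors, rose by 0.69 ± 0.19.

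**Figure D2:**
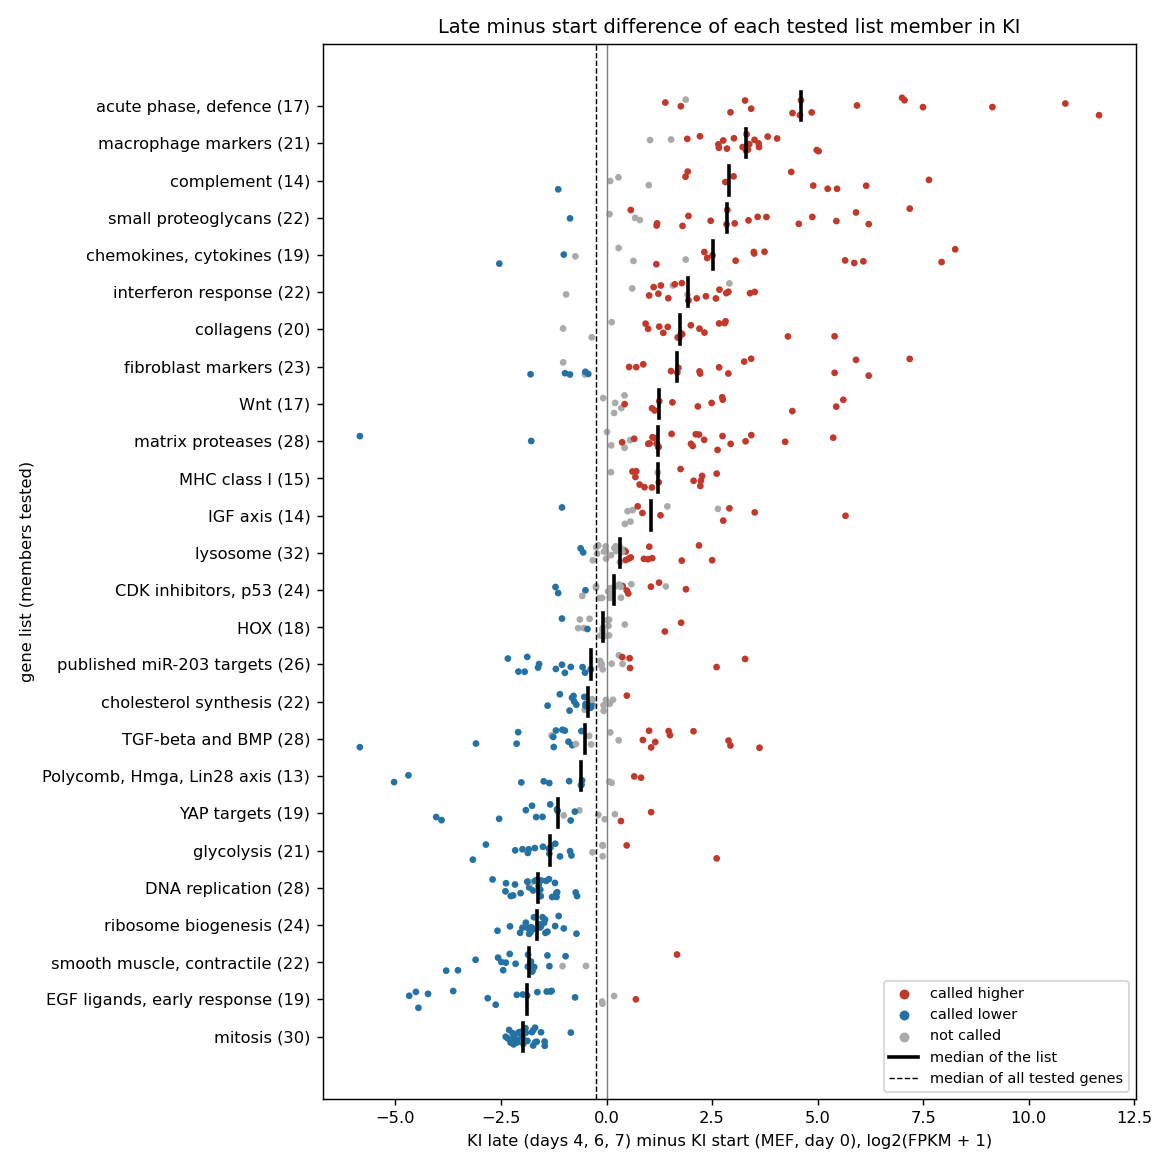
Late minus start difference in the KI libraries (x axis, log2(FPKM + 1) units) for each tested gene of each list (y axis), in red where higher, blue where lower and grey where the gene did not pass the limma test, with a black bar at the list's median and a dashed line at −0.26, the median of all genes. Mitosis, ribosome biogenesis and DNA replication lie almost wholly to the left, and acute phase, macrophage markers, proteoglycans and collagens almost wholly to the right.

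Extracellular matrix genes rose while the contractile genes fell. Of 20 collagens tested 17 were higher and none lower, with a median of 1.74. Col3a1, a fibrillar collagen of soft tissue, went from 258 and 108 FPKM to 6826, 6486 and 8074 (5.40 ± 0.37, limma adjusted p = 0.0007). Col1a1, the main chain of type I collagen, was already at 1498 and 1409 FPKM and reached 6016, 7323 and 6781 (2.2 ± 0.11). Among the 3 that did not pass was the basement-membrane chain Col4a1, at 160.5 and 157 FPKM and then 79.7, 157 and 153 (−0.35 ± 0.32, limma adjusted p = 0.4).

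The small leucine-rich proteoglycans and associated matrix proteins were higher in 18 of 22 tested and lower in 1, with a median of 2.85. Dcn (decorin), which binds collagen fibrils and TGF-β, went from 36.4 and 31.8 FPKM to 2395, 1885 and 2052 (5.91 ± 0.14, limma adjusted p = 9.8e-05). Dpt (dermatopontin) went from 3.56 and 3.03 FPKM to 389, 281 and 288 (6.21 ± 0.18), and Prelp from 2.10 and 1.76 FPKM to 106, 135 and 140.4 (5.44 ± 0.16). Bgn (biglycan) was abundant throughout, at 2384 and 2399 FPKM and then 3115, 3718 and 3891, and rose by only 0.57 ± 0.12. The 1 gene that fell was Fbln5 (fibulin 5), with a difference of −0.87 ± 0.19.

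Matrix proteases, their inhibitors and crosslinking enzymes were higher in 22 of 28 tested and lower in 2, among them the protease Plau (urokinase, −1.78 ± 0.14). Mmp2 (gelatinase A) went from 68.1 and 47.7 FPKM to 537, 503 and 673 (3.29 ± 0.21). Mmp3 (stromelysin) went from 0.971 and 4.34 FPKM to 264, 74 and 119.6 and was highest at day 4, and the collagenase Mmp13 went from 0.264 and 0.77 FPKM to 22.3, 22.9 and 38.6 (4.23 ± 0.30).

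Signalling genes of the mesenchyme were mixed. Of 17 Wnt-pathway genes tested 12 were higher and none lower, and the leading members were secreted antagonists. Sfrp1 went from 11.1 and 7.13 FPKM to 323, 424 and 580.4 (5.44 ± 0.30), and Sfrp2 from 14.3 and 1.34 FPKM to 224, 273 and 402 (5.61 ± 0.81). Of 28 TGF-β and BMP genes 10 were higher and 12 lower, beside 18.6% and 37.4% of all genes. The receptors Tgfbr2 and Tgfbr3 rose by 2.93 ± 0.15 and 3.62 ± 0.20. Genes that the pathway induces were among the fallers, with Id1, a BMP target, from 54.2 and 82.1 FPKM to 8.92, 7.36 and 5.04 (−3.09 ± 0.28) and the inhibitory Smad7 from 21.2 and 32.3 FPKM to 4.72, 6.05 and 5.43 (−2.09 ± 0.20).

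In the insulin-like growth factor axis 7 of 14 genes were higher and 1 lower. The ligand Igf1 went from 8.56 and 8.89 FPKM to 114, 99.4 and 116 (3.51 ± 0.11) and the carrier Igfbp3 from 17 and 13.6 FPKM to 885, 762 and 808 (5.66 ± 0.14). Igf1r, which encodes the receptor of Igf1, was the member that fell, from 21.1 and 23.8 FPKM to 9.79, 10.4 and 10.5 (−1.06 ± 0.10).

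Inflammatory and defence genes rose, and of the lists described the acute-phase genes had the highest median. In the acute-phase list 16 of 17 tested were higher and none lower, with a median of 4.60, and the list summed to 91.6 and 65.5 FPKM early and 7339.8, 7090.1 and 11193 late. Saa3 and Reg3g made up most of the late sum. Socs3, the feedback inhibitor of cytokine receptors, went from 7.45 and 4.95 FPKM to 60.7, 62.5 and 82.3 (3.28 ± 0.21), and the transcription factor Cebpd from 12.5 and 10.8 FPKM to 89.5, 97.1 and 101 (2.93 ± 0.11). Il6 itself was low, at 1.73 and 2.74 FPKM and then 4.18, 13.6 and 20.3, and just failed the test (1.87 ± 0.62, limma adjusted p = 0.051). The liver genes Orm2 and Fga were listed at 0 in all 5 KI libraries.

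Complement genes were higher in 10 of 14 and lower in 1, Masp1 (−1.15). The 10 include C3ar1 and C5ar1, receptors typical of myeloid cells. The proteases C1s and C1ra of the classical pathway went from 1.59 and 0.782 FPKM to 124, 71 and 92.3 and from 2.74 and 2.38 FPKM to 159, 106 and 139.7, and their inhibitor Serping1 from 5.54 and 3.46 FPKM to 309.9, 321 and 559 (6.15 ± 0.32). Of 19 chemokines and cytokines 13 were higher and 2 lower. Ccl2, which attracts monocytes, went from 70.6 and 91.7 FPKM to 410.2, 832 and 905 (3.06 ± 0.38), and Il33, a nuclear alarmin, from 0.941 and 0.0293 FPKM to 73, 57.4 and 81.6 (5.65 ± 0.31). Il33's receptor gene Il1rl1 fell, from 121 and 123 FPKM to 21.6, 24.2 and 15.4 (−2.54 ± 0.20), as did Csf1, the macrophage growth factor, from 111 and 202 FPKM to 73, 82.3 and 67.3 (−1.01 ± 0.27).

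Interferon-response genes were higher in 16 of 22 and lower in none, with a median of 1.93, but the rise was concentrated at day 4. Isg15, a ubiquitin-like modifier, was at 1.23 and 2.34 FPKM, then at 65.9, 8.37 and 10.8 (2.83 ± 0.90, limma adjusted p = 0.045). Ifit1, which binds foreign RNA, was at 0.135 and 0.161 FPKM, then at 26.5, 3.56 and 3.86. The list summed to 73.9 and 102 FPKM early, 738 at day 4 and 315 and 317 at days 6 and 7. The count of 16 was 3 without the KI MEF library, 5 without day 0, 10 without day 6, 9 without day 7 and 19 without day 4. The antigen-presentation genes of MHC class I were higher in 13 of 15 and lower in none, with H2-K1 from 12.5 and 14.5 FPKM to 68.2, 65.9 and 70.8 (2.26 ± 0.11), flat over the late days.

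The interferon-stimulated response element, GAAA followed after any 2 bases by GAAA again, stood on either strand in 7 of 12 matched promoters of the risen interferon genes (58.3%, against 3.99% of the promoters of all genes). As with the other motifs, this share describes a list chosen by pathway. The Isg15 promoter, on the minus strand at chr4:156200769-156201068, is printed because 3 overlapping matches run together in its capitals.
Isg15 promoter: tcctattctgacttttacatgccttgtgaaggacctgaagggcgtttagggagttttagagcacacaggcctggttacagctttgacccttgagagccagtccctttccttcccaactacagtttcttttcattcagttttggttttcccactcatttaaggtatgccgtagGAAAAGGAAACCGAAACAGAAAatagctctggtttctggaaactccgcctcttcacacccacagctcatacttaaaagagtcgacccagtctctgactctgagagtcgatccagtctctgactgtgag

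Markers of macrophages rose in the same libraries. Of 23 markers 21 reached the level filter, 19 were higher and none lower, with a median of 3.30. Lyz2 (lysozyme) was at 18.4 and 101 FPKM and then 1167, 1612 and 1601 (5.02 ± 0.70, limma adjusted p = 0.0035). Adgre1 (F4/80), a surface protein of mature macrophages, was at 0.713 and 2.05 FPKM and then 38.3, 36.1 and 35.2 (4.04 ± 0.25). For both, the day 0 value already lay above that of the MEFs. Mrc1 (CD206), a mannose receptor, was at 0.361 and 1.56 FPKM and then 94.4, 43.7 and 46.6 (4.98 ± 0.44). The markers summed to 52.9 FPKM in MEFs, 241 at day 0 and 2204, 2430.0 and 2355 on the late days. They moved in the same direction as the acute-phase, complement, chemokine, interferon and MHC class I lists, and their part in those results was not tested. In the WT line the markers rose as well, from sums of 151 and 226 FPKM early to 1575, 3846 and 4615 late, with a median difference of 3.32. In the KO line the markers summed to 22.1 and 10.5 FPKM early and 46.2, 90.5 and 138 late, with a median difference of 0.46. Laptm5, a lysosomal protein of blood cells, was called higher there (4.09), as was the endotoxin receptor Cd14 (1.78). The KO medians of the acute-phase, complement and chemokine lists were 3.46, 2.68 and 1.99, and the WT medians 4.48, 2.77 and 2.34. In bulk RNA, a change in the number of cells of a type and a change in RNA per cell cannot be told apart.

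**Figure D3:**
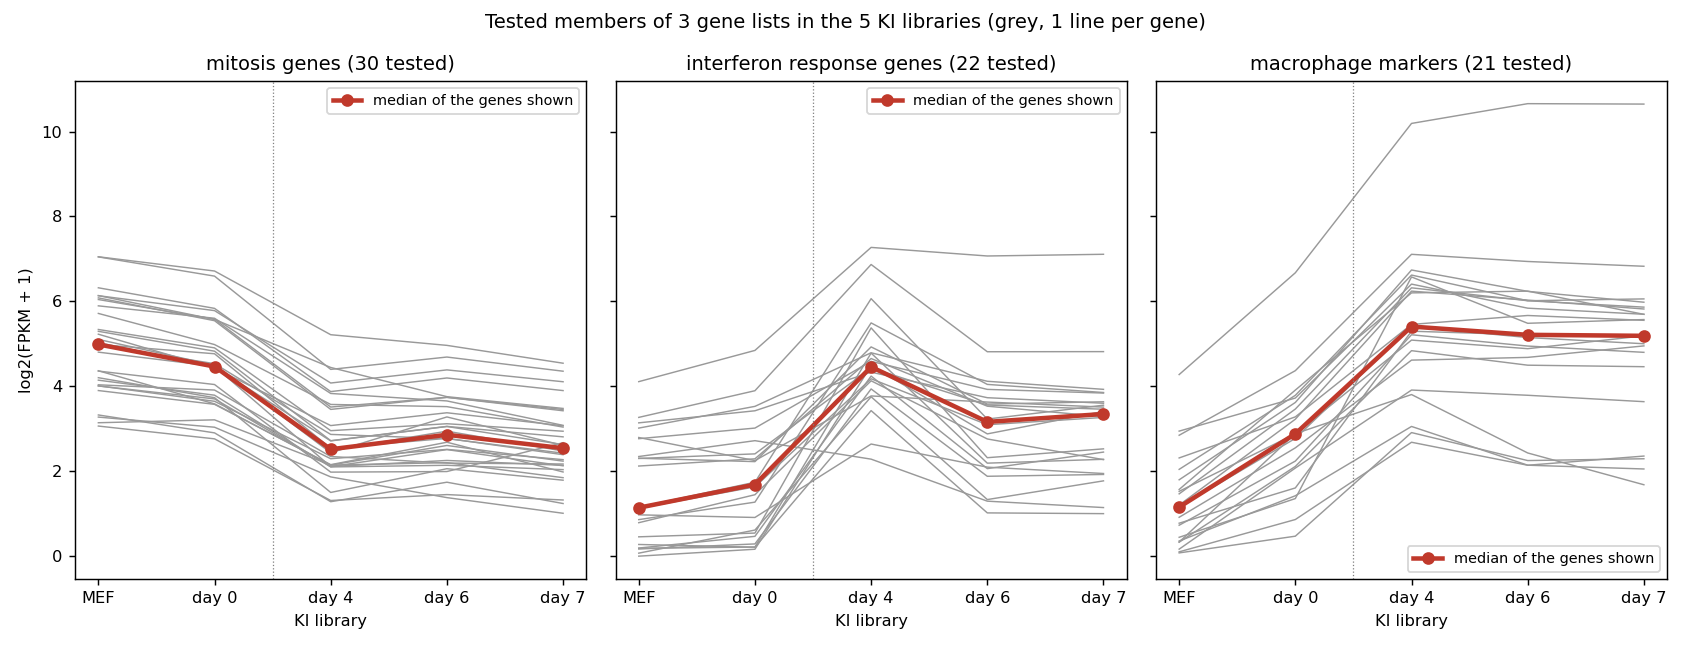
Level of each tested gene (y axis, log2(FPKM + 1)) over the 5 KI libraries (x axis) for 30 mitosis genes, 22 interferon-response genes and 21 macrophage markers, with the median of each list as a red line. Mitosis drops between day 0 and day 4 and stays low, interferon genes peak at day 4, and macrophage markers already rise from MEFs to day 0.

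RNA of fibroblast markers was present in all 5 KI libraries and moved in both directions. Fibroblast markers summed to 9830.3 and 9500.1 FPKM early and 27389, 29680.0 and 31790.3 late, most of it collagen and decorin. Of 23 tested 16 were higher and 5 lower, the latter count being 2 under quantile or upper-quartile scaling. Pdgfra, the PDGF receptor of fibroblasts and their progenitors, went from 13.4 and 5.12 FPKM to 93.9, 95.7 and 111 (3.42 ± 0.37), and Ly6a (Sca-1) from 134 and 86.5 FPKM to 1112, 929 and 1083 (3.26 ± 0.21). Vim (vimentin) fell from 3004 and 2817 FPKM to 844, 867 and 795 (−1.80 ± 0.08). No pluripotency marker was called higher, but of 22 only Klf5 and Klf2 reached the filter. Klf5 fell (−2.02 ± 0.37) and Klf2 did not pass. The others stayed below 5 FPKM in all 5 KI libraries and were not tested. Nanog stayed at or below 0.41 FPKM, Epcam at or below 0.097, and Utf1 was listed at 0 in all 5 KI libraries.

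Markers of other lineages moved in both directions. The endothelial list summed to 39.99 and 40.2 FPKM early and 16.2 to 19.2 late, and the neural list to 37 and 21.2 early and 7.89 to 9.88 late. Nes (nestin), the only neural marker tested, went from 25.2 and 14 FPKM to 0.533, 0.424 and 0.341 (−3.79 ± 0.31). The epithelial keratins Krt18 and Krt19 fell, from 12 and 4.72 FPKM to 0.0994, 0 and 0.109 and from 26 and 26.4 FPKM to 2.24, 0.515 and 0.779. The fat-cell list summed to 22.6 and 19.4 FPKM early and 117, 67.7 and 73.6 late. Its 2 tested members, Lpl and Cd36, rose (2.33 ± 0.41 and 2.86 ± 0.10), while the defining Adipoq was at most 0.0457 FPKM.

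Cartilage and bone markers summed to 262 and 405 FPKM early and 1097, 768 and 709 late. Of 5 tested 2 were higher and none lower. Most of the sum was Spp1 (osteopontin), a secreted protein of bone that macrophages also make, at 232 and 390.2 FPKM and then 1081, 747 and 689 (1.45 ± 0.30, limma adjusted p = 0.012). Sox9, the transcription factor of cartilage, rose by 0.74 ± 0.13. Acan, the cartilage proteoglycan, was at most 0.431 FPKM, and the cartilage collagen Col2a1, at 17.3 and 1.82 FPKM and then 0.417, 0.808 and 0.415, did not pass (limma adjusted p = 0.077).

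Chromatin regulators also moved, of which Dnmt1 is also a member of the DNA replication list above. In the list of polycomb subunits, Hmga proteins and Lin28-axis genes 9 of 13 were lower and 2 higher. Ezh2, the polycomb methyltransferase of dividing cells, went from 15.3 and 15.5 FPKM to 5.59, 4.83 and 4.21 (−1.49 ± 0.13), whereas its relative Ezh1 rose from 2.91 and 3.88 FPKM to 7.71, 6.31 and 6.13 (0.82 ± 0.18). Igf2bp1, an RNA-binding protein of embryonic tissue, fell from 25.6 and 17.3 FPKM to 5.26, 4.96 and 3.32 (−2.02 ± 0.24). Of 12 genes of DNA methylation 6 were lower and 1 was higher, beside 37.4% and 18.6% of all genes tested. The lower count was 3 without the KI MEF library. The maintenance enzyme Dnmt1 fell by 1.43 ± 0.11, and the gene that rose was Dnmt3l, a cofactor of de novo methylation in germ cells, from 0.136 and 0.0715 FPKM to 1.69, 4.21 and 5.80 (2.05 ± 0.58, limma adjusted p = 0.032).

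Of 20 antioxidant genes tested 7 were higher and 4 lower, beside 18.6% and 37.4% of all genes. Under quantile or upper-quartile scaling 9 were higher and 2 lower. Gpx3, a secreted glutathione peroxidase, went from 24.7 and 18.9 FPKM to 410.2, 452 and 536 (4.36 ± 0.17). Sod3, the extracellular superoxide dismutase, went from 1.25 and 0.664 FPKM to 33, 92.4 and 112 (5.2 ± 0.55). The metal-binding metallothionein Mt2 went from 15.9 and 41.7 FPKM to 996, 1192 and 1660.1 (5.55 ± 0.44). Gpx3, Sod3 and Mt2 were each lowest at day 4 and highest at day 7 among the late days. Nqo1, a classical target of NRF2, was among the fallers, from 11.4 and 12.4 FPKM to 2.57, 3.62 and 2.55 (−1.73 ± 0.17). In the list of FoxO and starvation genes 10 of 18 were higher and 4 lower, with the sestrin Sesn3 from 3.80 and 3.16 FPKM to 21.2, 20.7 and 22.4 (2.33 ± 0.10) and Cited2 from 75.6 and 97.9 FPKM to 6.85, 6.54 and 4.66 (−3.65 ± 0.20).

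The unfolded-protein list was lower in 11 of 21 and higher in 2, beside 37.4% and 18.6% of all genes. The members with the largest falls belong to the ATF4 branch, with Asns, asparagine synthetase, from 88 and 56.4 FPKM to 9.42, 15.9 and 14.1 (−2.37 ± 0.29) and Trib3 from 13 and 7.26 FPKM to 0.435, 0.667 and 0.589 (−2.78 ± 0.35). The count of 11 was 5 without the KI MEF library, 7 without day 0, 6 without day 4 and 6 under quantile scaling. Of 32 lysosome and autophagy genes 11 were higher and 2 lower, with the cathepsin Ctsf from 4.55 and 6.25 FPKM to 36.2, 31.1 and 37.7 (2.5 ± 0.16). That count was 3 without the KI MEF library, 7 without day 4, 4 without day 6 and 5 without day 7.

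Within the late phase, from day 4 to day 7, 213 genes were higher by at least 1 log2 unit (2.0%) and 365 lower (3.43%), in single libraries with no replicate check. Slpi, a secreted inhibitor of leukocyte proteases, was at 2.88, 11.9 and 29.3 FPKM on days 4, 6 and 7, Hp (haptoglobin) at 11.7, 23 and 53.5, and the smooth-muscle actin Actg2 at 5.17, 33 and 32.4. In the other direction, Oasl2, an interferon-induced gene, was at 40.5, 3.99 and 4.76 and the corneal proteoglycan Kera at 26.2, 3.28 and 3.71. Oasl2 and Kera had dropped by day 6, as had Isg15 and Ifit1. Within the early phase, from MEFs to day 0, 288 genes were higher (2.71%) and 249 lower (2.34%) by the same size. The macrophage marker Lyz2 went from 18.4 to 101 FPKM, and Txnip, an inhibitor of glucose uptake, from 2.28 to 26.6. The imprinted growth genes H19 and Mest were lower at day 0, from 929 to 196 and from 45.5 to 9.10 FPKM, and were at 2700.2 and 331 at day 4.

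The same late minus start comparison gave 1161 higher (10.6%) and 1043 lower genes (9.49%) in WT and 791 higher (6.96%) and 471 lower (4.14%) in KO. Of the genes higher in KI, 96.9% had a difference of the same sign in WT and 82.2% in KO. Of those lower in KI, 92.9% had the same sign in WT and 49.9% in KO. Over all genes tested in KI, 43.1% had a difference above 0 in WT and 58.6% in KO. The mitosis median was −1.97 in KI, −0.62 in WT and 0.50 in KO, and that of ribosome biogenesis −1.65, −1.02 and 0.35. For smooth-muscle genes the medians were −1.83, −2.32 and −2.24, and for proteoglycans 2.85, 3.18 and 0.92.

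**Figure D4:**
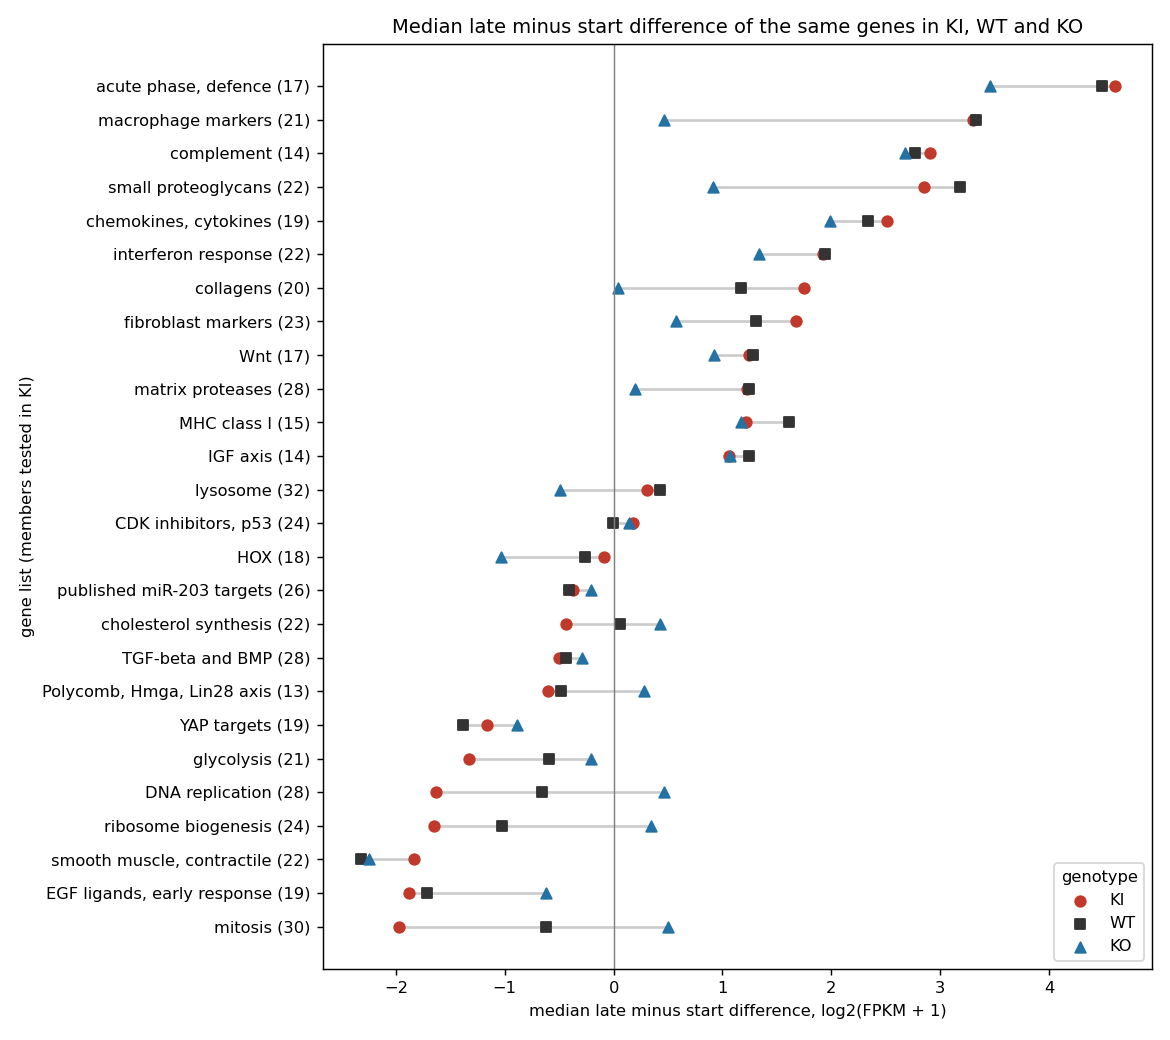
Median late minus start difference of each gene list (x axis, log2(FPKM + 1) units) in KI, WT and KO (points of different colour; y axis: the lists). Acute phase, proteoglycans and smooth muscle lie on the same side of 0 in all 3 lines, while mitosis, DNA replication and ribosome biogenesis lie below 0 in KI and WT and above it in KO.

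Whether the change itself differed was tested as the genotype by phase term over the 15 libraries of the 3 lines, with no term for the stage that the lines share. Against WT, 2 genes had a higher change in KI (0.0163%), Mir203 and Gm22860, and 4 a lower one (0.0326%), with 927 genes at an unadjusted p under 0.05 in limma. Without the WT MEF library, 1 of those with sex-linked RNA apart, the counts were 19 and 7, and without WT day 4, the other, 6 and 27. They were 15 and 5 without WT day 0, 2 and 25 without KI MEFs and 5 and 35 without KI day 0, and between 2 and 4 and between 4 and 7 without any other library.

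Against KO, 452 genes had a higher change in KI (3.69%) and 1905 a lower one (15.5%), and these counts depended on single libraries. They were 32 and 105 without the KI MEF library, 52 and 98 without KO day 0, 149 and 594 without KO day 6, 172 and 622 without KI day 0, 176 and 716 without KI day 7, 194 and 915 without KI day 6, 205 and 813 without KO day 7, 285 and 1002 without the KO MEF library, 947 and 3480 without WT day 4 and 1042 and 3265 without KO day 4. All 30 mitosis genes were among the lower ones, a count of 1 without the KI MEF library, 2 without KO day 0 and at least 22 otherwise. Ect2 gave −2.96 ± 0.43 (limma adjusted p = 0.0088), with 24.3 and 15 FPKM early and 17.4, 37 and 37.2 late in KO. Of the macrophage markers 11 had a higher change in KI than in KO, 1 without KO day 0, 2 without the KI MEF library, 5 without the KO MEF library and 7 without KO day 6. Left out singly, no other library moved that count by over 1.5 times.

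The 3′ UTRs of the annotated genes were searched for the 7 bases that pair with the miR-203-3p seed shown above, CATTTCA. Of 10639 genes tested 9488 had a UTR on the GENCODE M21 annotation (GRCm38), and 1616 of these (17%) held the site. In KI, 40.2% of genes with the site were lower (649 genes, Wilson 95% interval 37.8% to 42.6%, covering counting error only) and 39.6% of those without it (3118 of 7872). The median differences were −0.29 and −0.25. In WT, where Mir203 was listed at 0, the shares were 12.7% and 9.38%, and in KO 5.16% and 4.15%. Genes with the 8-base form CATTTCAA were lower in 43.0% of 472 genes, with a median of −0.35. UTRs with the site were longer, at a median of 2610.5 bases against 980.5. Within groups of UTR length split at 706 and 1841 bases, the shares with and without the site were 39.3% and 42.4% in the shortest, 41.0% and 38.1% in the middle and 40.0% and 37.5% in the longest.

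Of 30 genes reported elsewhere as miR-203 targets, 26 were tested, and 13 were lower and 5 higher, beside 37.4% and 18.6% of all genes tested. Among the 14 with the 7-base site 7 were lower and 2 higher, and among the 12 without it 6 were lower and 3 higher. Skp2, the F-box protein that marks p27 for degradation, went from 13.1 and 13.1 FPKM to 2.88, 3.10 and 2.11 (−1.94 ± 0.17, limma adjusted p = 0.0011). Cav1, the coat protein of caveolae, went from 428 and 553 FPKM to 95.3, 105 and 87 (−2.34 ± 0.15), and Snai2, a repressor of epithelial genes, from 18.9 and 23 FPKM to 10.5, 10.3 and 9.33 (−0.99 ± 0.12). Socs3, given above, rose although its UTR holds the site, and Dnmt3a and Bmi1 did not pass. Of the 24 genes with the largest changes, 5 held the site, Saa3, Agtr2 and Steap4 among the increases and Dusp5 and Hbegf among the decreases.

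Windows of 30 bases around the sites of 3 fallen targets, of Dusp5 and of Socs3 are printed from GRCm38 in the direction of the messenger RNA, with the match to the seed, and the A after it where present, in capitals. They lie on the minus strand for Skp2 (chr15:9113131-9113160) and Socs3 (chr11:117966111-117966140), and on the plus strand for Cav1 (chr6:17339455-17339484), Snai2 (chr16:14708695-14708724) and Dusp5 (chr19:53541622-53541651). The base in that position is an A in all but Socs3.
Skp2 site: tgggattaacaCATTTCAActctgtgcagg
Cav1 site: gggaCATTTCAAggatgaaaggtttttttc
Snai2 site: tgctgccaaacCATTTCAAccaaaggaaca
Dusp5 site: gttcgccttttCATTTCAAgcataaggcaa
Socs3 site: cagaaaagaaaCATTTCAgtaatttataat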

How the data were processed

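Polyadenylated RNA was sequenced with strand-marking libraries per the labels' protocols. FPKM values per gene, computed by the authors and deposited as 1 table of 38756 lines for 17 libraries, were used as given. Cufflinks 2.2.1, SAMtools 0.1.16, TopHat2 2.0.10, FastQC and Bowtie 1.0.0 are listed in the submitters' processing notes, with mm10 (GRCm38) as build and no annotation version. Cufflinks estimates are not counts, so no count model was used, counting error is unknown, and an exact 0 can be a failed estimate.

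From these values, 19 repeated identifiers (41 lines) were summed, and 37428 of 38734 genes (96.6%) matched GENCODE M21 for names, positions and 3′ UTRs. The 5 KI libraries were grouped by label, and log2(FPKM + 1) was fitted with limma 3.58.1 (R 4.3.3, trend on mean level, Benjamini-Hochberg adjustment over all genes tested) for late minus start, on genes with 5 FPKM or more in at least 1 of the 5. This scale understates changes of low genes. A fit over the 15 MEF to day 7 libraries (12263 genes) tested whether that change differed between genotypes. A gene is called here at an adjusted p of 0.05. Nothing in the labels says that libraries of 1 line are separate cultures, so p-values measure the spread between these libraries, which may be technical.

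The genes named first are the 12 largest called increases and the 12 largest called decreases whose late and early values do not overlap, of which 1 decrease is not reported here. The libraries compared and the gene lists were chosen with earlier results of these data known. Sequences come from RefSeq tables (GRCm38.p6) and the GRCm38 genome, and motifs were searched as exact letters on both strands. Alternatives were the pseudocount, the level filter, 2 scalings, an added fold minimum, stage as a block and leaving out each library. Python 3.11.15, pandas 2.3.3, numpy 2.4.6 and matplotlib 3.10.9 were used.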

Additional observations from a re-analysis of the deposited data

Results flagged for a closer look

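The genotype by phase term of limma (BH-adjusted p of 0.05) found the late minus start change of some results to differ between KI and another line. Against WT these were 2 genes with a higher and 4 with a lower change, Mir203 (4.28) among the higher. Against KO they were 452 genes with a higher change in KI and 1905 with a lower one, and Mir203 again gave 4.28. Mir203 is the induced gene and had no listed RNA in any WT or KO library, so its 4.28 is the KI change itself.

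The list counts given next cover only members that reached 5 FPKM in a KI library. By list, the change in KI was higher than in KO for 11 of 21 macrophage markers, 8 of 20 collagens, 5 of 22 proteoglycans, 9 of 28 matrix protease genes and 6 of 17 acute-phase genes, beside 3.69% of all 12263 genes. It was lower for 30 of 30 mitosis genes, 23 of 28 DNA replication genes, 23 of 24 ribosome biogenesis genes, 8 of 22 cholesterol genes, 6 of 19 EGF ligand and early genes and 6 of 13 genes of the polycomb, Hmga and Lin28 list, beside 15.5% of all genes. The 12263 genes also include genes that reached 5 FPKM only in WT or KO. Counts with a library left out can likewise include list members below 5 FPKM in KI. Each of these list counts was at most 2 without the KI MEF library and at most 2 without KO day 0. The DNA replication count was also 14 without KI day 0, and the remaining single omissions gave 17 to 28. Ribosome biogenesis was at 3 without KI day 0, 3 without KO day 6, 5 without KO day 7, 5 without KI day 7, 6 without KO MEFs, 8 without KI day 6 and 13 without WT MEFs, WT day 0 or KI day 4. The counts of the other lists, mitosis and macrophage markers apart, also moved by over 1.5 times without several further libraries, and their ranges are given in the next section.

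Named genes with a different change in KI than in KO, as the difference between the changes in log2 units, were Saa3 at 2.68, Reg3g at 4.83, Serpina3n at 2.01 and Reg1 at 4.50 among the increases. Among the decreases they were Hmga1 at −4.30, Hmga2 at −2.11, Etv4 at −4.04 and Pdlim1 at −2.84. The factors gave −7.92 for Pou5f1, −4.82 for Sox2, −1.84 for Klf4 and −4.22 for Myc. The sign of each held under every alternative run. The calls for Saa3, Reg3g, Hmga1, Etv4 and Myc were lost without KO day 0 and without the KI MEF library, those of Serpina3n, Hmga2, Pdlim1, Klf4 and Reg1 also without other libraries, and that of Sox2 without the KI MEF library.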

How the results depend on the processing

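With stage as a replicate block, an alternative chosen after seeing the data, 5 genes had a higher and 3 a lower change in KI than in WT, and 350 and 1146 than in KO, of which 293 and 1091 were among those reported. Against KO it gave 10 ribosome biogenesis and 3 proteoglycan genes, and Serpina3n, Hmga2 and Pdlim1 no longer passed (adjusted p of 0.088, 0.063 and 0.051). Deviations from the genotype and phase means correlated between lines of the same stage at −0.14 to 0.12 across genes. With 2 early libraries per line, the MEF and day 0 correlations are equal by construction. A correlation across all genes does not show whether single genes share a stage effect. With FPKM alone depth is unknown, so the precision of low genes cannot be given. Over the KI libraries the counts of all genes stayed within 1.5 times of those reported in 26 of 26 alternatives, from 1395 to 1726 higher and 2849 to 3691 lower with 1 library left out. The 12 named increases and 12 decreases with Mir203, Klf4 and Myc kept direction and call in 324 of 324. List counts stayed within 1.5 times in 365 and moved in 38 alternatives, and against KO in 164 and 100. Against KO the alternatives can also count members below 5 FPKM in KI, which the reported counts leave out. The less frequent direction also moved with quantile and upper-quartile scaling, to 1 and 1 lower chemokine, 1 and 0 lower lysosome, 4 and 3 higher unfolded-protein, 2 and 2 higher EGF and early and 4 and 4 higher polycomb genes. The cause of these moves was not tested.

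Against WT the higher count was 7 with no filter, and the lower 2 with a pseudocount of 0.1, 10 with no filter and 1 with a mean filter, with 2 to 19 and 4 to 35 over single omissions. Against KO the higher count was 890 and the lower 988 with quantile scaling, 1027 and 1037 with upper-quartile scaling, and 32 to 1042 and 98 to 3480 over single omissions.

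In KI, a 1 log2 minimum gave 3 p53 and inhibitor genes, 2 cholesterol, 5 lysosome, 4 unfolded-protein, 8 MHC class I, 2 lower imprinted, 8 published target and 5 polycomb genes. Quantile scaling gave 7 cholesterol, 6 unfolded-protein and 3 imprinted genes, and upper-quartile scaling 7 cholesterol and 3 imprinted genes. With no filter there were 6 lysosome, 7 unfolded-protein and 9 interferon genes, and with a pseudocount of 5 there were 10 interferon genes. Single omissions gave 3 to 6 p53 and inhibitor, 3 to 11 cholesterol, 2 to 9 fatty acid, 3 to 12 lysosome, 5 to 8 unfolded-protein, 3 to 19 interferon, 1 to 5 imprinted and 3 to 6 DNA methylation genes.

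Against KO, no filter gave 5 cholesterol, 11 ribosome, 3 collagen, 2 proteoglycan, 3 protease, 3 acute-phase and 2 polycomb genes. Quantile scaling gave 4 cholesterol, 3 proteoglycan and 3 polycomb genes, upper-quartile scaling 4 cholesterol, 14 ribosome, 15 collagen and 3 polycomb genes, and a pseudocount of 0.1 gave 7 macrophage markers. Single omissions gave 1 to 13 macrophage, 1 to 30 mitosis, 1 to 28 replication, 1 to 15 cholesterol, 0 to 24 ribosome, 0 to 10 EGF and early, 0 to 16 collagen, 0 to 11 proteoglycan, 0 to 15 protease, 0 to 7 acute-phase and 0 to 12 polycomb genes.

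The lower share of genes with the miR-203-3p site was 24.3% with no filter, 31.9% with quantile scaling, 43.0% with the 8-base site and 27.8% to 38.2% over single omissions. Without the site it was 23.5%, 31.3% and, over single omissions, 28.0% to 36.4%.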

Other observations

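The HOX genes, which record the body position a fibroblast came from, seldom passed the test in the KI libraries. Of 31 in the list 18 were tested, 2 were higher, 2 lower and 14 did not pass, beside 18.6% higher and 37.4% lower over all genes. A gene that did not pass is not shown to be stable. The counts were 3 and 1 under quantile or upper-quartile scaling. Hoxd8 went from 4.20 and 6.42 FPKM in MEFs and day 0 to 17.7, 20.9 and 22 on days 4, 6 and 7 (1.77 ± 0.19, limma adjusted p = 0.0017), and Hoxd3 from 2.66 and 5.04 FPKM to 13.4, 11.9 and 8.86 (1.38 ± 0.28). Hoxc6, the most abundant member, was at 20.9 and 22.9 FPKM and then 22.6, 25.6 and 20.6 and did not pass (0.06 ± 0.12, limma adjusted p = 0.7). Hoxa5 fell by 1.06 ± 0.19.

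Imprinted genes, expressed from 1 parental copy and many of them growth regulators, were called in both directions. Of 21 tested, 5 were higher and 5 lower, beside 18.6% higher and 37.4% lower over all genes. Plagl1, a zinc-finger factor that regulates other imprinted genes, went from 35.4 and 18 FPKM to 301, 159 and 136 (2.84 ± 0.44, limma adjusted p = 0.0048), highest at day 4. Slc38a4, an amino acid transporter, went from 74.6 and 57.7 FPKM to 21, 13.8 and 10.6 (−2.10 ± 0.30). H19 was at 929 and 196 FPKM and then 2700.2, 699.6 and 829, with late values from below to above the MEF level, and did not pass (1.44 ± 0.88, limma adjusted p = 0.22). Without the KI MEF library 1 was lower, without day 6 it was 2, and without day 0 or day 7 it was 3.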
